A study of Canis lupus familiaris with 6 samples.

Results

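The nuclear-encoded subunits of the oxidative phosphorylation complexes were followed through a comparison of bisphenol A (BPA) with solvent in differentiating fat cells of the dog. Members were matched by gene name alone, under a rule chosen with earlier results of these data known. It took names starting with NDUFA, NDUFB, NDUFC, NDUFS, NDUFV, UQCR, COX4, COX5, COX6, COX7, COX8 or ATP5, together with SDHA, SDHB, SDHC, SDHD and CYC1. The NDUFAF assembly factors and LOC names were left out. The rule matched 72 of 23299 genes, which were sorted into complex I (37 genes), II (4), III (8), IV (9) and V (14). NDUFA4 and its relative NDUFA4L2 were placed in complex IV, since the NDUFA4 protein belongs there despite its name.

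Canine adipose-derived stem cells (cADSC), fibroblast-like precursors from dog fat, were cultured for 2 days and then kept in adipogenic medium for 14 days. In both groups that medium contained the glucocorticoid dexamethasone at 1 µM, the PPARG agonist rosiglitazone at 200 nM and insulin at 10 µg/mL. The control group received DMSO (3 libraries) and the other group 1 µM BPA (3 libraries), a plastics monomer that binds oestrogen receptors. The labels give no breed, sex, age or number of donor animals and do not say whether replicates were separate cultures, so p-values measure only the spread between these libraries, which may be technical.

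Oxidative phosphorylation takes place in the inner mitochondrial membrane. Complexes I and II pass electrons from NADH and succinate to ubiquinone, complex III passes them on to cytochrome c, and complex IV hands them to oxygen. Complexes I, III and IV pump protons as they work, and complex V, the ATP synthase, uses the returning protons to make ATP. Most subunits are encoded in the nucleus and a smaller core in mitochondrial DNA, and white fat cells are known to gain mitochondria as they mature.

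Values are TPM (transcript abundance scaled to a library total of 1000000), a gene's abundance per length as a share of its library; the deposited log2(TPM + 1) is the scale of all changes. Series of values follow the replicate numbers of the titles. The depth behind a value is unknown, because TPM keeps no read count. In bulk RNA, fewer cells of a type and less RNA per cell cannot be told apart. The adipocyte markers ADIPOQ, FABP4, PLIN1, LEP, LPL and CIDEC were all detected, and their summed level ranged from 605 to 713 TPM in control and from 621 to 890.2 TPM with BPA. Stromal markers summed to between 3653 and 4272 TPM in control and between 3355 and 5163 TPM with BPA, with 7 of 8 matched, 5 tested and NT5E under 0.3 TPM in every library. Of the markers of blood, endothelial, epithelial and muscle cells 5 of 8 were matched, and PTPRC, PECAM1, VWF and KRT18 lay under 0.3 TPM in every library. CD68, a macrophage marker and the other matched one, was present at 4.99, 6.88 and 5.46 TPM in controls 1 to 3 and 3.41, 2.78 and 8.10 TPM in BPA libraries 1 to 3, highest in BPA replicate 3 (log2 change -0.34, and -0.72 without that library, where the unadjusted p was 0.005 and the adjusted p 0.614 by limma). Its part in the subunits' values was not tested. BPA replicate 3 stood apart on the first principal component, with a score of 61.1 against -29.9 to 11.3 in the others, so results are given with and without it.

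The transcripts of the complexes were abundant and unequal. The 72 genes together made up 0.984%, 0.922% and 0.959% of all TPM in controls 1 to 3 and 0.976%, 0.958% and 0.778% in BPA libraries 1 to 3. BPA replicate 3 therefore held the least, and the other BPA libraries lay within the control range. Summed TPM averaged 9548 ± 313 in control (SD, n = 3) and 9042 ± 1097 with BPA. Mean levels over the 6 libraries ranged from 0.195 TPM for COX4I2 to 1248 TPM for ATP5F1B, with a median of 80.0 TPM, and 30 genes reached 100 TPM while 7 lay under 10 TPM.

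**Figure D1:**
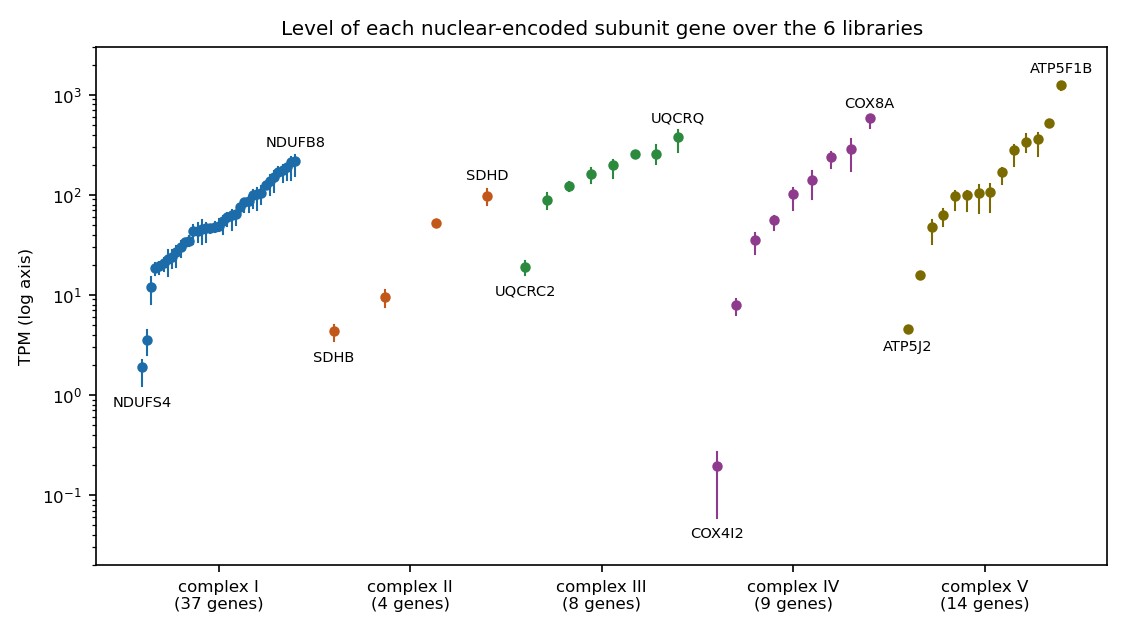
Mean TPM of each of the 72 subunit genes over 6 libraries (points, log axis), sorted within its complex, with lines from the lowest to the highest library. ATP5F1B at 1248 TPM was the most abundant member and COX4I2 at 0.195 TPM the least.

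Levels within a complex were far apart. In complex II, which is built from 1 copy of each subunit, SDHD averaged 96.7 TPM and SDHA 52.2 TPM, and their libraries did not overlap. SDHC averaged 9.60 TPM and SDHB 4.40 TPM, again without overlap. In complex I the lowest were NDUFS4 at 1.89 TPM and NDUFAB1, the mitochondrial acyl carrier protein, at 3.57 TPM, and in complex V the lowest was ATP5J2 at 4.60 TPM. The lowest tested member of complex IV was COX5A at 7.88 TPM. Whether reads shared with near-identical copies were split or dropped is not given in the sources used here, so these low levels are uncertain. No name starting with COX6 was matched, nor was COX7A2. The names looked up for the 13 subunits encoded in mitochondrial DNA were not matched either, so none of these was analysed here.

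No single subunit gene passed the test for a change with BPA, and the subunits as a group were not tested. Of the 72 genes 71 had a mean log2(TPM + 1) of at least 1 and were tested; COX4I2 was not. By limma with Benjamini-Hochberg adjustment over all 12277 tested genes 0 members passed, with adjusted p from 0.901 to 0.995, and 0 of all genes did (0%). With unadjusted p-values, 0 members reached 0.05 as higher and 0 as lower, where 1.87% of all tested genes were higher and 1.70% lower. BPA lay above control without overlap for 2 members, SDHA and ATP5J2, and below for 1, NDUFV3, where 5.38% of all tested genes lay above and 3.98% below. Among the members the 3 make up 4.23%, and among all tested genes the share was 9.37%. The median SE of a member's log2 change was 0.16, which exceeds the size of the median change.

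Adipocyte markers, the genes of maturing fat cells, had larger log2 differences than the subunits at the median, without a test of that difference. With BPA 5 of the 6 markers lay above control and 1 below, with a median log2 change of 1.22 (1.26 without BPA replicate 3). Of these, 4 and 1 lay so without overlap, against 5.38% and 3.98% of all tested genes. None of the markers passed by limma. At an unadjusted p under 0.05, 4 were higher and 1 lower, against 1.87% and 1.70% of all tested genes. ADIPOQ, the adipokine adiponectin, stood at 9.47, 14.7 and 7.99 TPM in controls 1 to 3 and 32.3, 40.4 and 26.2 TPM in BPA libraries 1 to 3 (log2 change 1.55, SE 0.26; unadjusted p = 0.00103, adjusted p = 0.901 by limma). LEP, which encodes leptin, was the 1 marker below control (log2 change -0.24, SE 0.092). The abundant LPL and LEP make up most of the summed marker level, which overlapped between groups. All 5 tested stromal markers also lay above control, with a median of 0.49 (0.22 without BPA replicate 3, 3 above and 2 below), and 1 of them, PDGFRA, did so without overlap. The markers named here were named after their values were seen, and their part in the subunits' values was not tested.

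Small differences leaned downward, and most of this rested on BPA replicate 3. With all libraries 54 members lay below control and 17 above, and their median log2 change was -0.11, against a median of 0.031 over all tested genes, of which 43.4% lay below. Without BPA replicate 3 the split turned to 20 below and 51 above, with a median of 0.038 against 0.023 over all tested genes. In that library 59 of 71 members (83.1%) had their lowest value of the 6, against 42.4% of all tested genes, and 3 (4.23%) their highest, against 38.9%. The members' mean log2 distance from the control mean was 0.057, 0.0068 and -0.34 in BPA libraries 1 to 3 and 0.062, -0.080 and 0.018 in controls 1 to 3. Control replicate 2 was the lowest control library for 54 members, and in all 54 of these BPA replicate 3 was also the lowest BPA library. With both of these libraries left out, the members' median log2 change was -0.018, against 0.045 over all tested genes. Stromal markers were split in these libraries. ENG, PDGFRB and PDGFRA were highest of all in BPA replicate 3, with PDGFRB at 28.9, 84.4 and 46.3 TPM in controls 1 to 3 and 32.5, 61.1 and 206 TPM in BPA libraries 1 to 3. LUM and DCN, the most abundant, were lowest in BPA replicate 3 and, among controls, in control replicate 2, with LUM at 3007, 2431 and 2636 TPM in controls 1 to 3 and 3675, 2834 and 2005 TPM in BPA libraries 1 to 3. The mean log2 distance of the 5 tested ones from the control mean was 0.81 in BPA replicate 3 and 0.27 in control replicate 2, while their summed TPM was the lowest of its group in both.

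**Figure D2:**
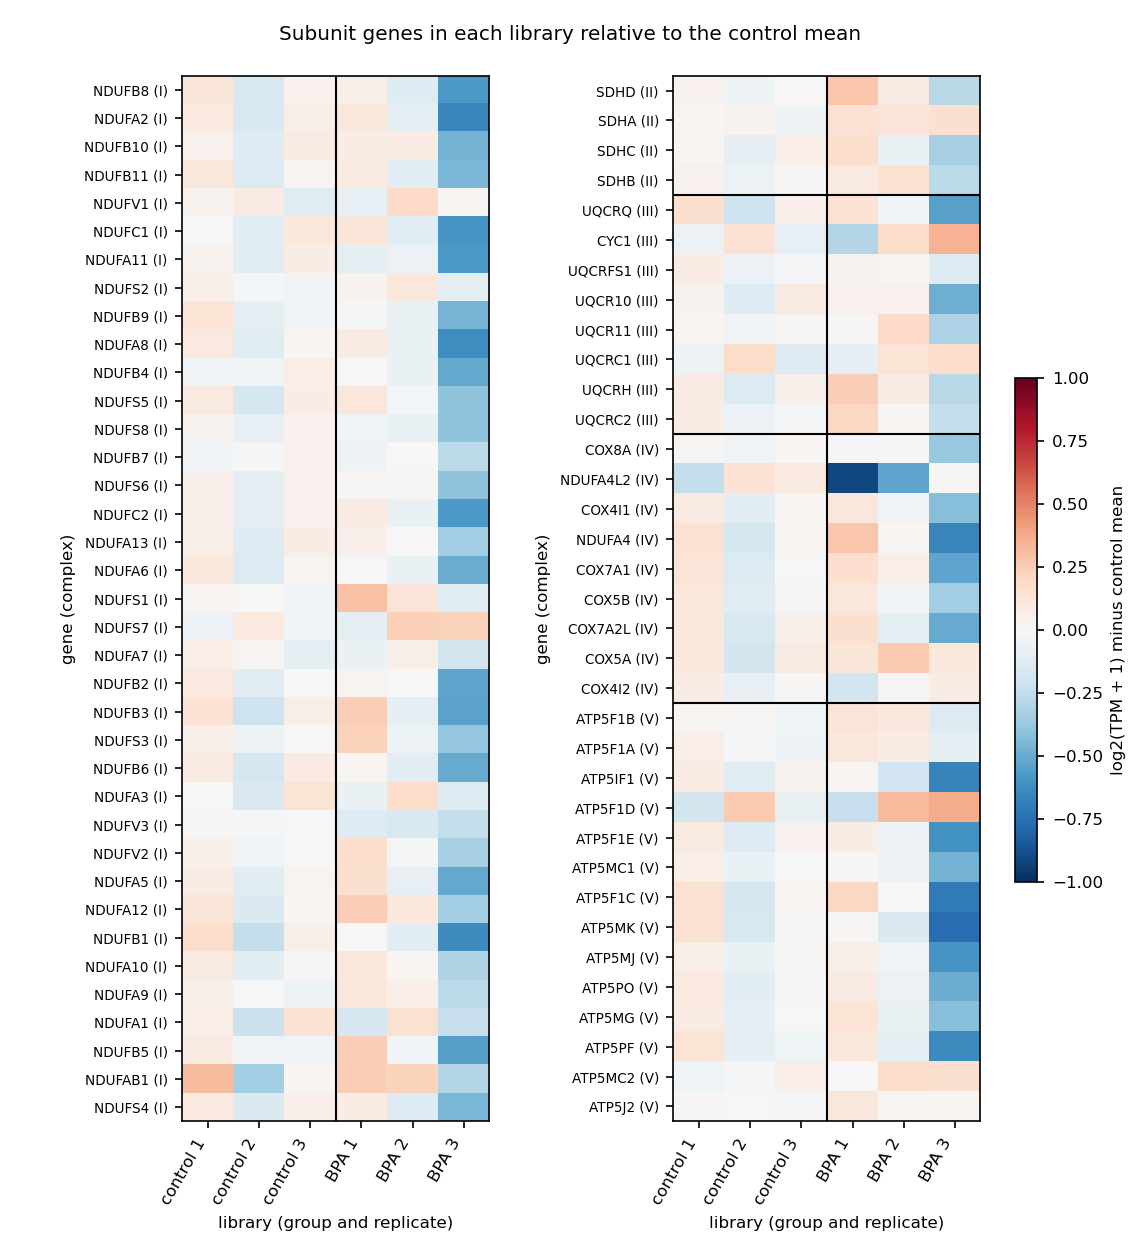
Log2(TPM + 1) minus the control mean (colour) for all 72 genes (rows, by complex and falling mean TPM) in the 6 libraries (columns). The column of BPA replicate 3 is blue for most genes, with 59 of the 71 tested members at their lowest there, while CYC1, ATP5F1D, NDUFS7 and SDHA are red in it.

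Members differed in how low they lay in BPA replicate 3. The ratio of its TPM to the mean of BPA replicates 1 and 2 had a median of 0.726 over the 71 members and ranged from 0.566 (NDUFA4) to 1.64 (NDUFA4L2). It was under 1 for 64 members. The 7 others were NDUFS7, SDHA, CYC1, UQCRC1, NDUFA4L2, ATP5F1D and ATP5MC2, named after their values were seen where the rule for named genes does not cover them. BPA replicate 3 lay above every control library for 6 of the 71 members, CYC1, ATP5F1D, NDUFS7, SDHA, ATP5MC2 and ATP5J2. It did so for 5329 of all 12277 tested genes, so this position is common in that library. By role, in a grouping made after the values were seen, the 30 accessory subunits of complex I had a median ratio of 0.712 and the 7 catalytic core subunits 0.798, with a range of 0.713 to 1.11 in the core. This spread is a description of 1 library and carries no test.

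Complex I, the NADH dehydrogenase and entry point of most electrons, had 31 of 37 members below control, at a median log2 change of -0.13 that was 0.011 without BPA replicate 3 (14 below, 23 above). Its summed TPM was 2987, 2673 and 2916 in controls 1 to 3 and 2947, 2817 and 2143 in BPA libraries 1 to 3. BPA replicates 1 and 2 lay inside the control range and BPA replicate 3 below it. NDUFB8, an accessory subunit and the most abundant member of this complex, stood at 250.1, 205 and 236 TPM in controls 1 to 3 and 239, 209.6 and 154 TPM in BPA libraries 1 to 3. Its groups overlapped, with the low value again in BPA replicate 3 (log2 change -0.22, SE 0.18).

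NDUFV3, a small accessory subunit of the NADH-oxidising module, had the smallest p of the members below control in complex I. It measured 36.4, 35.8 and 35.8 TPM in controls 1 to 3 and 32.9, 32.2 and 30.3 TPM in BPA libraries 1 to 3. Every BPA library lay below every control library, and the controls differed by little (mean 36.0 ± 0.344 TPM against 31.8 ± 1.34 TPM with BPA). The log2 change was -0.17 (SE 0.078; unadjusted p = 0.0685, adjusted p = 0.901 by limma) and -0.14 without BPA replicate 3.

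The core subunits that carry the flavin and the iron-sulphur clusters lay on both sides of control. NDUFS7, which holds the last iron-sulphur cluster before ubiquinone, had the smallest p of the members above control in this complex, at 43.8, 48.8 and 44.4 TPM in controls 1 to 3 and 42.8, 54.1 and 53.8 TPM in BPA libraries 1 to 3 (log2 change 0.13, SE 0.12). Its BPA replicates 2 and 3 lay above all controls and BPA replicate 1 below all of them. NDUFS1, the largest subunit and carrier of several clusters, stood at 47.8, 46.9 and 45.6 TPM in controls 1 to 3 and 57.5, 51.2 and 43.4 TPM in BPA libraries 1 to 3. BPA replicates 1 and 2 exceeded all controls and BPA replicate 3 lay under them. Its log2 change was 0.11 with all libraries and 0.21 without that one (unadjusted p = 0.0421, adjusted p = 0.893 by limma). It was the 1 of 71 members higher at an unadjusted p under 0.05 in that fit. Of all 12277 tested genes 410 were. NDUFV1, the flavoprotein that binds NADH, overlapped between groups at 173, 178 and 154 TPM in controls 1 to 3 and 158, 192 and 170.3 TPM in BPA libraries 1 to 3. Of the 7 core members 4 lay above control and 3 below, with a median log2 change of 0.019, and of the 30 accessory members 2 lay above and 28 below, with a median of -0.15. Without BPA replicate 3 these medians were 0.076 and 0.0076. Single accessory members had log2 changes between -0.25 and 0.058.

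Complex II, succinate dehydrogenase, is the 1 complex built from nuclear genes alone, and it also serves the tricarboxylic acid cycle. Its members split evenly, 2 above and 2 below control, with a median log2 change of 0.011. Its summed TPM was 163, 156 and 158 in controls 1 to 3 and 186, 169.7 and 145 in BPA libraries 1 to 3, so BPA libraries 1 and 2 were above and 3 below all controls. SDHA, the flavoprotein that oxidises succinate, stood at 50.1, 50.7 and 47.8 TPM in controls 1 to 3 and 54.8, 54.2 and 55.5 TPM in BPA libraries 1 to 3. The groups did not overlap, and BPA replicate 3 was the highest library. The mean was 54.8 ± 0.675 TPM with BPA against 49.5 ± 1.53 TPM in control. This difference of 0.14 in log2 (SE 0.074; unadjusted p = 0.102, adjusted p = 0.901 by limma) was also 0.14 without that library.

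The other members of complex II overlapped between groups. The membrane anchor SDHD stood at 98.1, 91.7 and 95.6 TPM in controls 1 to 3 and 115, 101 and 78.3 TPM in BPA libraries 1 to 3, with a log2 change of 0.030, and at 0.18 without BPA replicate 3. Its libraries with BPA span the whole control range. The iron-sulphur subunit SDHB measured 4.55, 4.18 and 4.44 TPM in controls 1 to 3 and 4.75, 5.00 and 3.47 TPM in BPA libraries 1 to 3. SDHC, the other anchor, measured 10.0, 9.10 and 10.3 TPM in controls 1 to 3 and 11.2, 9.33 and 7.61 TPM in BPA libraries 1 to 3. Without BPA replicate 3 all 4 members were on the upper side, their median being 0.13, and 0 had an unadjusted p under 0.05.

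Complex III, which oxidises ubiquinol and reduces cytochrome c, had 5 of 8 members below control, at a median of -0.014 on the log2 scale (0.052 without BPA replicate 3, with 1 below and 7 above). UQCRQ, a small ubiquinone-binding subunit and the most abundant of this complex, stood at 439.8, 340.2 and 406 TPM in controls 1 to 3 and 435, 386 and 269 TPM in BPA libraries 1 to 3. The lowest value in each group came from control replicate 2 and BPA replicate 3. The catalytic subunit CYC1, the cytochrome c1 that hands electrons to cytochrome c, ran the other way, at 238, 274 and 235 TPM in controls 1 to 3 and 203, 283 and 316 TPM in BPA libraries 1 to 3. Here control replicate 2 was the highest control library and BPA replicate 3 the highest of all, and BPA replicate 1 was the lowest. The groups overlapped, and the log2 change of 0.081 (SE 0.18) was -0.052 without BPA replicate 3.

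UQCRFS1, the Rieske iron-sulphur protein, was among the most even members, at 269, 244 and 252 TPM in controls 1 to 3 and 262, 260.0 and 232 TPM in BPA libraries 1 to 3. UQCRC1, a core protein related to mitochondrial processing peptidases, stood at 115, 136 and 109.6 TPM in controls 1 to 3 and 112, 132 and 135 TPM in BPA libraries 1 to 3. Its partner UQCRC2, named after its values were seen, averaged 18.9 ± 0.916 TPM in control and 18.9 ± 3.04 TPM with BPA. For all 3 genes the groups overlapped. UQCR10, a small subunit beside cytochrome c1, had the smallest p of the lower members of this complex, with 208 ± 16.1 TPM in control, 192 ± 38.3 TPM with BPA and a log2 change of -0.13 (SE 0.17); without BPA replicate 3 it was 0.045.

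**Figure D3:**
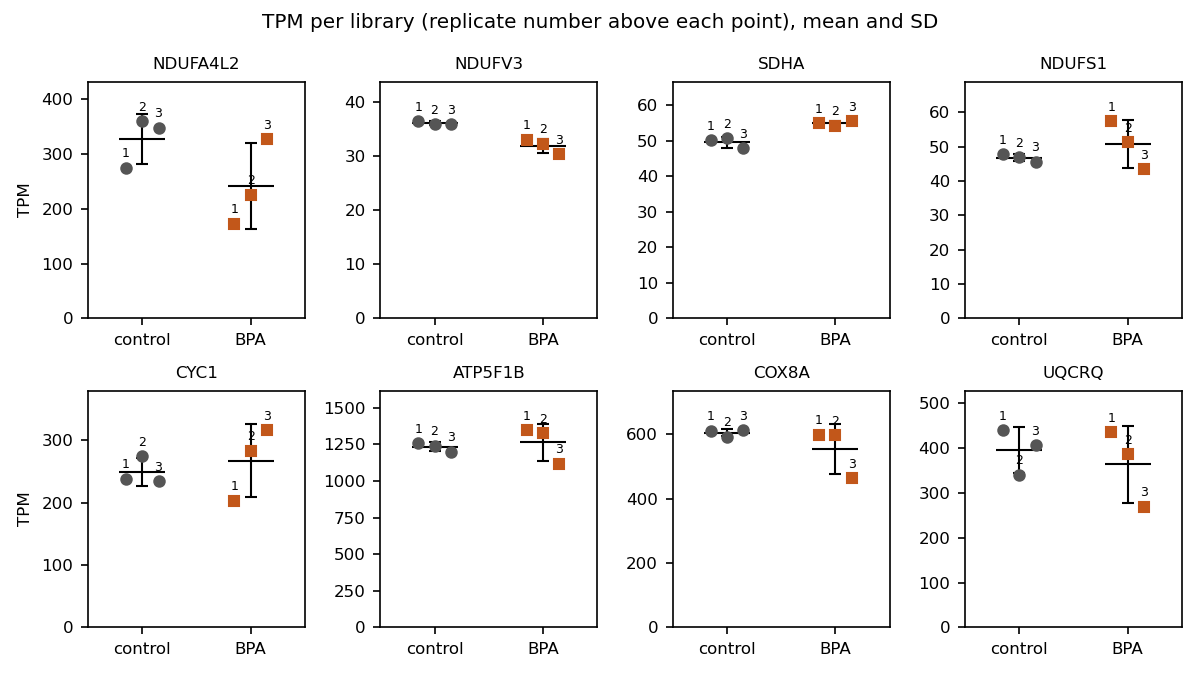
TPM of 8 members in each library (points, with the replicate number above), with the mean and SD of each group (bars, n = 3). NDUFV3 and SDHA show no overlap between groups, NDUFA4L2 is lowest in BPA replicates 1 and 2, and COX8A, ATP5F1B and UQCRQ are lowest in BPA replicate 3.

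Complex IV, cytochrome c oxidase, had 7 of 8 tested members below control, at a median log2 change of -0.12, which became 0.040 without BPA replicate 3 (2 below, 6 above). COX8A, a small transmembrane subunit and the most abundant of this complex, stood at 611, 592 and 614 TPM in controls 1 to 3 and 599, 598 and 465 TPM in BPA libraries 1 to 3. The 3 controls and BPA replicates 1 and 2 lay close together and BPA replicate 3 lay apart. COX4I1, the ubiquitous form of the regulatory subunit COX4, averaged 249 ± 17.0 TPM in control and 232 ± 42.5 TPM with BPA. Its counterpart COX4I2, known from lung and from cells short of oxygen, was under 0.3 TPM in every library and was not tested. COX7A1, the form of COX7A typical of heart and skeletal muscle and of brown fat, stood at 113, 93.9 and 103 TPM in controls 1 to 3 and 116, 108 and 71.3 TPM in BPA libraries 1 to 3. COX7A2L, a related protein that helps join complexes III and IV, averaged 36.9 ± 3.70 TPM in control and 33.8 ± 7.88 TPM with BPA. For COX4I1, COX7A1 and COX7A2L the direction turned from below to above control without BPA replicate 3, with log2 changes of 0.036, 0.12 and 0.035. COX5A, a subunit on the matrix side, was the 1 tested member above control in this complex, at 7.98, 6.34 and 7.86 TPM in controls 1 to 3 and 8.11, 9.01 and 7.98 TPM in BPA libraries 1 to 3 (log2 change 0.16, SE 0.12). Its low level is uncertain, as described above.

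NDUFA4L2 and NDUFA4 differed in the order of their libraries. NDUFA4L2, known as a gene induced by low oxygen through HIF1 that restrains respiration, measured 275, 359.6 and 347 TPM in controls 1 to 3 and 173, 226 and 327 TPM in BPA libraries 1 to 3. BPA replicates 1 and 2 lay below every control library, and BPA replicate 3 lay within the control range. The log2 change was -0.47 (SE 0.25; unadjusted p = 0.11, adjusted p = 0.901 by limma), the lowest of the 71 members. Without BPA replicate 3 it was -0.72 (SE 0.17, unadjusted p = 0.00898, adjusted p = 0.732 by limma), and it still did not pass. It was the 1 of 71 members lower at an unadjusted p under 0.05 in that fit. Of all 12277 tested genes 274 were. NDUFA4 itself stood at 159, 127 and 146 TPM in controls 1 to 3 and 174, 145 and 90.3 TPM in BPA libraries 1 to 3. It was highest in BPA replicate 1, where NDUFA4L2 was lowest, and lowest in BPA replicate 3, with a log2 change of -0.12 (SE 0.25).

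**Figure D4:**
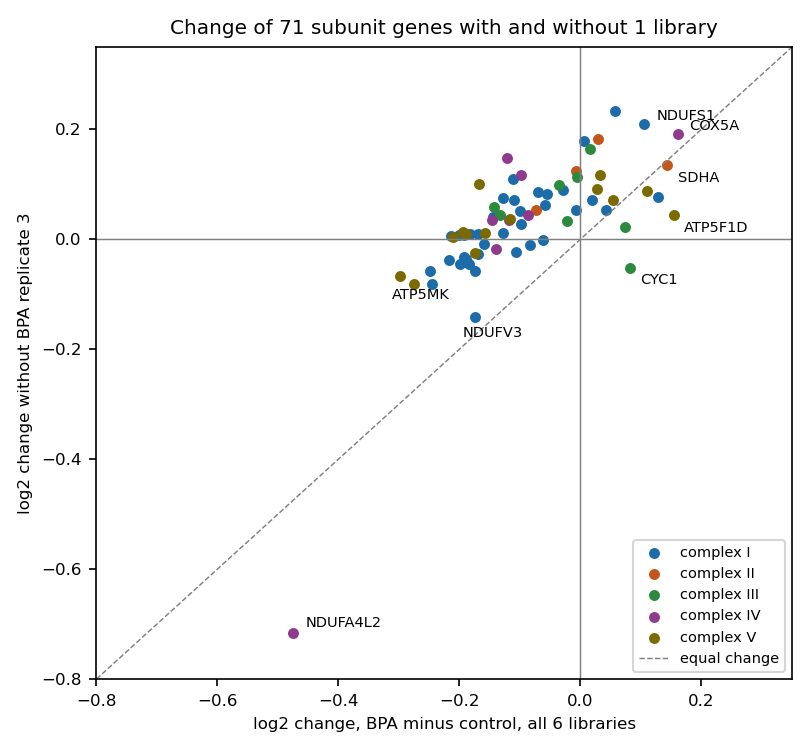
Log2 change of each of the 71 tested members with all 6 libraries (horizontal) and without BPA replicate 3 (vertical), coloured by complex, with a dashed line of equal change. Most points lie above the line and near 0 on the vertical axis, while NDUFA4L2 lies far below 0 on both, at -0.47 and -0.72.

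Complex V, the ATP synthase, had 9 of 14 members below control, at a median log2 change of -0.16 that was 0.025 without BPA replicate 3 (3 below, 11 above). Its summed TPM was 3602, 3450.2 and 3450.4 in controls 1 to 3 and 3671, 3603 and 2954 in BPA libraries 1 to 3. ATP5F1B, the catalytic beta subunit of the F1 head, stood at 1257, 1239.9 and 1198 TPM in controls 1 to 3 and 1347, 1324 and 1118 TPM in BPA libraries 1 to 3. ATP5F1A, the alpha subunit paired with it, stood at 544, 514 and 503 TPM in controls 1 to 3 and 561, 547 and 486 TPM in BPA libraries 1 to 3. For both, BPA replicates 1 and 2 exceeded all controls and BPA replicate 3 lay below them, and the log2 changes were 0.032 (SE 0.10) and 0.028 (SE 0.092). ATP5F1D, the delta subunit of the central stalk, named after its values were seen, was lowest in BPA replicate 1 and highest in BPA replicate 3, at 274, 373 and 295 TPM in controls 1 to 3 and 266, 388 and 404 TPM in BPA libraries 1 to 3. ATP5F1C, the gamma subunit of that stalk, also named afterwards, ran the opposite way, at 124, 99.4 and 113 TPM in controls 1 to 3 and 129, 111 and 68.1 TPM in BPA libraries 1 to 3. Over the 5 F1 subunits the ratio of BPA replicate 3 to the mean of BPA replicates 1 and 2 ranged from 0.567 (ATP5F1C) to 1.24 (ATP5F1D).

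ATP5IF1, the inhibitor that stops the synthase from hydrolysing ATP, had the smallest p of the lower members of complex V, at 411, 357 and 398 TPM in controls 1 to 3 and 396, 340.2 and 245 TPM in BPA libraries 1 to 3. The groups overlapped (log2 change -0.28, SE 0.19), and without BPA replicate 3 the change was -0.081. ATP5MC2, a gene for the proton-carrying c ring, was the upper counterpart at 14.5, 14.9 and 15.8 TPM in controls 1 to 3 and 15.1, 17.1 and 16.9 TPM in BPA libraries 1 to 3, with a log2 change of 0.11 (SE 0.093). ATP5J2, a low-level membrane-part gene named after its values were seen, lay above control without overlap, at 4.70 ± 0.206 TPM with BPA against 4.49 ± 0.0568 TPM (log2 change 0.054, SE 0.084). The 6 members of the peripheral stalk and membrane part had log2 changes from -0.30 (ATP5MK) to 0.054 (ATP5J2).

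Genes that work beside the complexes gave no calls either. By limma 0 of the 41 tested assembly factors passed. Of these 27 lay below control and 14 above, with a median log2 change of -0.036, which turned to 0.066 without BPA replicate 3 (11 below, 30 above). NDUFAF8, a complex I assembly factor, lay above control without overlap at 22.7, 27.7 and 23.9 TPM in controls 1 to 3 and 27.9, 33.1 and 29.2 TPM in BPA libraries 1 to 3 (log2 change 0.27, SE 0.12). NDUFAF5, an enzyme that modifies NDUFS7, lay below without overlap, at 5.26 ± 0.251 TPM in control and 4.45 ± 0.613 TPM with BPA (log2 change -0.21). Of 16 tested electron carrier and ubiquinone genes 12 lay below and 4 above (median -0.054, 0 passing), and without BPA replicate 3 this turned to 4 below and 12 above (median 0.075). CYCS, the cytochrome c that links complexes III and IV, overlapped at 447, 407 and 422 TPM in controls 1 to 3 and 495, 413 and 285 TPM in BPA libraries 1 to 3. COQ10B, a ubiquinone-binding protein, averaged 18.4 ± 0.910 TPM against 15.3 ± 3.86 TPM with BPA, and the ubiquinone synthesis kinase COQ8A 5.05 ± 0.743 TPM against 7.59 ± 3.42 TPM, both with overlap.

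Tricarboxylic acid cycle genes, which supply the electrons, stood near the control mean in BPA replicate 3, and 6 of the 13 tested members had their lowest value there. With BPA 7 lay above control and 6 below (median 0.11, 0 passing; without BPA replicate 3, 12 above and 1 below, median 0.082), and their mean distance from the control mean was 0.076, 0.080 and 0.073 in BPA libraries 1 to 3, with medians of 0.097, 0.063 and -0.0033. OGDH, a subunit of the oxoglutarate dehydrogenase complex named after its values were seen, stood far above the rest in BPA replicate 3, at 4.81, 10.8 and 6.56 TPM in controls 1 to 3 and 4.67, 8.07 and 21.9 TPM in BPA libraries 1 to 3. BPA lay above control without overlap for 3 of them, MDH2, CS and DLST, the last 2 named after their values were seen. These are 23.1% of the list, where 5.38% of all tested genes lay above. MDH2, the malate dehydrogenase of mitochondria, measured 2.73, 2.53 and 2.25 TPM in controls 1 to 3 and 2.92, 3.20 and 3.18 TPM in BPA libraries 1 to 3, a log2 change of 0.23 (SE 0.095). Of 13 tested carrier, porin and import genes 8 lay below control and 5 above (median -0.014, 0 passing), and without BPA replicate 3 this turned to 4 below and 9 above (median 0.038). VDAC2, an outer-membrane porin, lay below control without overlap, at 183, 168 and 175 TPM in controls 1 to 3 and 158, 149.7 and 129 TPM in BPA libraries 1 to 3 (log2 change -0.27, SE 0.10; unadjusted p = 0.0422, adjusted p = 0.901 by limma).

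Regulators of mitochondrial biogenesis had 9 of 15 tested members above control and 6 below (median 0.027, 0 passing). Without BPA replicate 3 the split was also 9 above and 6 below, with a median of 0.011. Their mean stood 0.36 above the control mean in BPA replicate 3, the library with the lowest subunit values, while their median there was -0.087. In that library 7 of the 15 had their lowest value and 7 their highest, against 42.4% and 38.9% of all tested genes. NRF1, a factor that drives many subunit genes, was even at 1.67, 1.68 and 1.82 TPM in controls 1 to 3 and 1.84, 1.65 and 1.56 TPM in BPA libraries 1 to 3. TFAM, which packages and transcribes mitochondrial DNA, stood at 16.4, 15.3 and 14.8 TPM in controls 1 to 3 and 19.1, 16.3 and 11.9 TPM in BPA libraries 1 to 3. The coactivator PPARGC1A, known as a driver of mitochondrial growth in brown fat, was under 0.3 TPM in every library. PPARGC1B, its relative, averaged 0.961 ± 0.257 TPM in control and 1.61 ± 0.910 TPM with BPA, with overlap, and so did the mitochondrial helicase TWNK at 8.90 ± 0.871 TPM and 10.3 ± 2.80 TPM.

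The lean of the subunits was also present in other lists. Mitochondrial ribosomal protein genes had 59 of 71 tested members below control (median -0.13) and cytosolic ones 76 of 78 (median -0.21). Without BPA replicate 3 these were 31 of 71 (median 0.0078) and 51 of 78 (median -0.022). Their means in BPA replicate 3 were -0.32 and -0.54, beside -0.34 for the subunits, and they took their lowest value there for 85.9% and 97.4% of members. The difference between these lists was not tested.

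**Figure D5:**
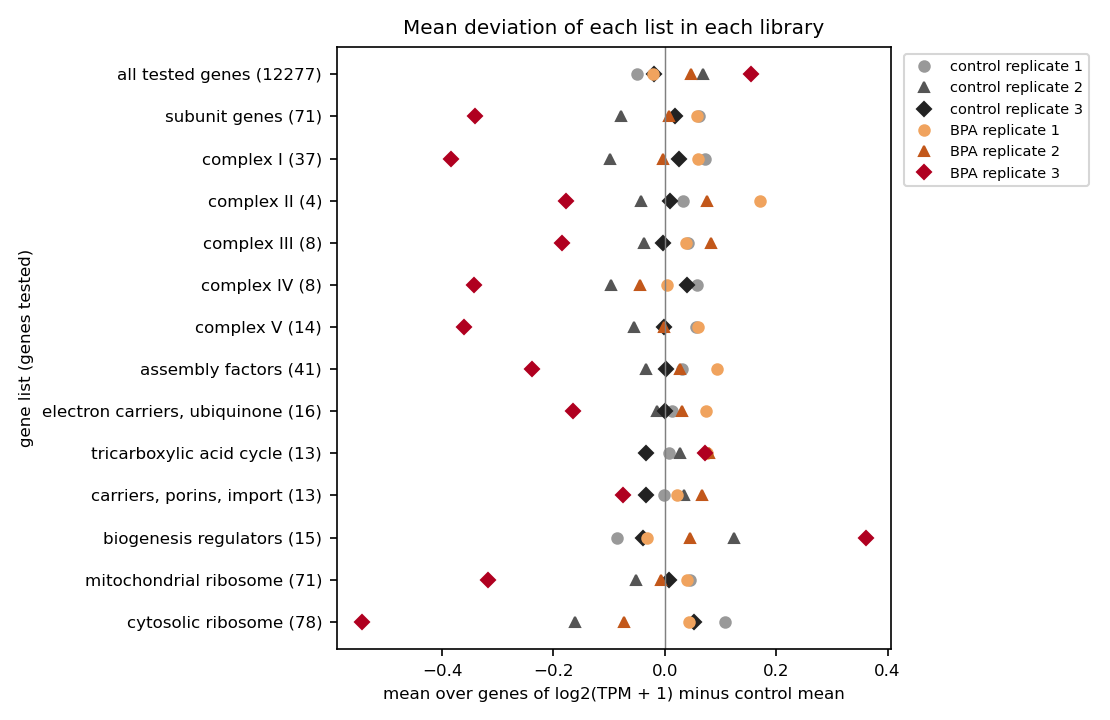
Mean over the tested genes of each list of log2(TPM + 1) minus the control mean, 1 point per library (number of genes in brackets). BPA replicate 3 lies at -0.34 for the subunit genes and at -0.54 for cytosolic ribosomal protein genes, but at 0.073 for the tricarboxylic acid cycle and 0.36 for the biogenesis regulators, whose medians there were -0.0033 and -0.087.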

How the data were processed

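Messenger RNA of 6 libraries was measured, 3 control and 3 BPA, grouped and numbered by their titles. The libraries were stranded and mRNA-selected, per the labels' protocols. The authors deposited log2 values for 23299 genes, read as log2(TPM + 1) because back-transformed columns sum to 1000000. Which aligner, counter, build and annotation were used is not given in the sources used here, so no coordinates or sequences are printed. All 72 members matched symbols of the RefSeq table for UU_Cfam_GSD_1.0, as did 22346 of all names.

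Genes with a mean of at least 1 (12277) were tested with limma 3.58.1 under R 4.3.3 (two-sided, trended empirical Bayes, no covariate, Benjamini-Hochberg adjustment over all tested genes, threshold 0.05). The test was checked on data simulated with independent noise for each gene and library. Such data lack a shift shared by many genes in 1 library, so the check does not cover that case. Medians and counts over members carry no test. Named genes were, per complex, the most abundant member and the smallest p in each direction, a fixed set of catalytic, isoform and regulatory members, and 2 genes of smallest p per pathway list plus CYCS, PPARGC1A, NRF1, TFAM and UCP1. A gene named by this rule is not reported here. Members and lists were chosen with earlier results of these data known.

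Alternatives were quantile normalization or median centring, pseudocounts of 0.1 and 5, no filter, a minimum mean of 3, rescaling without the 20 most abundant or the ribosomal protein genes, other empirical Bayes settings, a replicate block and leaving out libraries.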

Additional observations from a re-analysis of the deposited data

How the results depend on the processing

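By limma 0 of the members passed under each of the 18 alternatives run, the replicate block included. Over all genes the count past the threshold was 0 with all libraries (439 at an unadjusted p under 0.05) and 6 without a filter, 2 without BPA replicate 3 and control replicate 2 together, and from 0 to 1 when libraries were left out singly (1 without BPA replicate 3). The members' median log2 change stayed below 0 under every scaling, pseudocount and filter tried (from -0.19 to -0.10) and without both of these libraries (-0.018), and ranged from -0.21 to 0.038 when libraries were left out singly, above 0 without BPA replicate 3. The medians of complexes IV and V ranged from -0.23 to 0.040 and from -0.27 to 0.025 in the same way. Of the scalings, median centring gave the members' lowest median (-0.19). The median over all tested genes was then -0.053, against 0.031 without centring. With quantile normalization the medians were -0.16 for the members and -0.029 for all tested genes. The array weights could not be fitted, since their estimate did not converge, and gave no value.

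The labels do not say whether replicate numbers pair the libraries. Deviations from the group means correlated at 0.72, -0.44 and -0.23 for same-numbered libraries. Control replicate 2 correlated best with BPA replicate 3 (0.79). The first principal component held 79.8% of the variance over so few libraries. These correlations therefore cannot show whether same-numbered libraries shared a donor or batch. With the replicate block 0 genes and 0 members passed, 264 genes had an unadjusted p under 0.05, and the members' median log2 change was -0.11.

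Of the 38 named genes tested, many turned sign under an alternative, with 44 reversals over the 18 alternatives. Apart from the common shift by median centring given below, the cause was not tested. The log2 changes of these genes with all libraries were not all near 0, with 0.17 for TWNK and -0.15 for COX7A2L. Under median centring the log2 change was -0.057 for ATP5F1A, -0.052 for ATP5F1B, -0.0026 for CYC1, -0.042 for NDUFV1, -0.054 for SDHD, -0.082 for TFAM and -0.011 for UQCRC1. Quantile normalization gave -0.022 for SDHD and -0.079 for TFAM, and TFAM was -0.0024 and -0.017 when rescaled without the 20 most abundant or the ribosomal protein genes. Without BPA replicate 3 and control replicate 2 together it was 0.049 for COX7A1, 0.058 for CYCS, 0.060 for NDUFA4, 0.00076 for NRF1, 0.10 for SDHB, 0.0048 for SDHC and 0.0026 for UQCRFS1. Leaving out single libraries gave log2 changes from -0.013 to 0.091 for ATP5F1A, -0.017 to 0.12 for ATP5F1B, -0.23 to 0.036 for COX4I1, -0.23 to 0.12 for COX7A1, -0.30 to 0.035 for COX7A2L, -0.052 to 0.27 for CYC1, -0.31 to 0.088 for CYCS, -0.32 to 0.15 for NDUFA4 and -0.032 to 0.10 for NDUFV1. They were -0.064 to 0.011 for NRF1, -0.089 to 0.12 for SDHB, -0.20 to 0.054 for SDHC, -0.093 to 0.18 for SDHD, -0.14 to 0.18 for TFAM, -0.027 to 0.27 for TWNK, -0.22 to 0.045 for UQCR10, -0.053 to 0.033 for UQCRFS1 and -0.29 to 0.060 for UQCRQ. Read depth is unknown, so what it limits cannot be stated.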

Other observations

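Uncoupling and thermogenic genes were mixed. UCP2, an inner-membrane carrier of the uncoupling family, stood at 40.3, 78.2 and 42.7 TPM in controls 1 to 3 and 52.9, 90.0 and 183 TPM in BPA libraries 1 to 3. The groups overlapped (log2 change 0.89, SE 0.50, adjusted p = 0.901 by limma), and BPA replicate 3 was far above the rest, and the change was 0.42 without it. UCP1, DIO2, PPARGC1A and ELOVL3, markers of brown and beige fat cells, were under 0.3 TPM in every library. CIDEA, a lipid droplet protein of brown and beige cells and the 1 thermogenic marker tested, was above control in all 3 BPA libraries, at 1.31, 1.69 and 1.05 TPM in controls 1 to 3 and 3.20, 3.70 and 1.78 TPM in BPA libraries 1 to 3 (log2 change 0.70, SE 0.23, adjusted p = 0.901 by limma).

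The ADP/ATP carriers, which exchange the product of complex V, were uneven in level, and were named after their values were seen. SLC25A6 averaged 2981 ± 38.3 TPM in control and 2961 ± 260.2 TPM with BPA, SLC25A5 500.1 ± 21.3 TPM and 508 ± 73.6 TPM, and SLC25A4 438 ± 18.1 TPM and 376 ± 57.6 TPM. All 3 overlapped between groups, with log2 changes of -0.014, 0.014 and -0.23 (SE 0.10, 0.13 and 0.13). For SLC25A4, BPA replicates 2 and 3 lay below every control library. Citrate synthase (CS), also named after its values were seen, lay above control without overlap. It stood at 96.5, 104 and 98.6 TPM in controls 1 to 3 and 106, 106 and 121 TPM in BPA libraries 1 to 3. The log2 change was 0.16 (SE 0.090, adjusted p = 0.901 by limma).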
